A study of Mus musculus and Homo sapiens with 34 samples.

Results

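CMTM3, FAM102A, F2R, BOK, ARHGAP18, TMCC3, ENTPD5 and AQP1 are 8 genes that moved in 1 direction in spheroids of 3 colorectal carcinoma lines when the cells were grown with SIS ECM, and that are not among the interferon-stimulated genes. They were chosen by the measured difference between SIS ECM and cells alone in each line, so that difference is given here as a description, without a test. All 8 symbols were found once among the 55450 genes of the mouse table and once among the 58870 genes of the human table. By the call used here (an adjusted p under 0.05 in edgeR's quasi-likelihood test, in each line), 19 of 8836 genes tested in all 3 lines and joined by symbol moved in 1 direction. Of these, 15 were higher in every line (0.17% of the genes tested) and 4 were lower (0.0453%). The 8 genes gave 5 of the 15 and 3 of the 4. Another 5 were on a list of interferon-stimulated genes, which served for this count and to label genes named below. The remaining 6 included ABCA1, MMP14, TMEM87B and VGLL4 (higher) and NSDHL (lower), so the 8 are a choice among 14. Just inside the threshold was ABCA1, whose largest adjusted p over the lines was 0.0468, and just outside was GLIPR1 at 0.0544. Among the 8, FAM102A came nearest to the threshold, at 0.0393 in HT29.

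CT26 and MC38 are mouse lines and HT29 is a human line. The cells of each were grown in round-bottomed plates to which they do not attach, either as spheroids of cells alone or with SIS ECM, a decellularised matrix material. After 7 days spheroids were collected 10 to a tube, and polyA RNA was sequenced, with 6 libraries in each culture of CT26 and HT29 and 5 in each culture of MC38. The labels give no other treatment, and do not say whether libraries of a group came from separate cultures, so each p-value is set against a spread between libraries that could be technical only. Because whole spheroids were sequenced, fewer cells of a kind and less RNA per cell cannot be told apart. Against 8 markers of colorectal epithelium, HT29 cells alone had all 8 at a mean of 1 CPM (counts per library scaled to a common total) or more. CT26 had 2 (Krt20 and Krt18), with Cdh1, Cdx1 and Epcam at 0 in every library, and MC38 had none, with Epcam, Krt20 and Cdx2 at 0. The summed level of 9 fibroblast markers was 451 to 797 CPM in CT26 and 1361 to 1826 CPM in MC38, against at most 1.58 CPM in HT29. With SIS ECM, Dcn of that list rose in CT26 and Fap and Col1a1 fell in MC38, Krt18 rose in CT26, and VIL1 and KRT20 fell in HT29. In both mouse lines the libraries numbered 1 to 3 stood apart from those numbered 4 to 6. Their mitochondrially encoded share was 4.41% ± 0.60 against 8.07% ± 0.36 in CT26 (SD, n = 6 and 6) and 4.15% ± 0.72 against 6.28% ± 0.60 in MC38 (n = 5 and 5), while in HT29 it was 6.13% and 6.29%. The labels do not say what the numbers stand for, so values of the 8 genes within number ranges are given below where they differ.

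The 8 genes belong to no single pathway. F2R encodes protease-activated receptor 1, the thrombin receptor, which is switched on when a protease clips its extracellular end and signals through heterotrimeric G proteins to the cytoskeleton. CMTM3 is a membrane protein of the chemokine-like factor family with a MARVEL domain, and AQP1 is a water channel of the plasma membrane. ARHGAP18 is a GTPase-activating protein that turns off RhoA and so limits stress fibres. BOK is a pro-apoptotic member of the BCL2 family that sits largely at membranes of the endoplasmic reticulum. ENTPD5 hydrolyses UDP in the endoplasmic reticulum, a step that helps N-glycoproteins to fold, and TMCC3 is an endoplasmic reticulum protein with coiled coils. FAM102A, also called EEIG1, was first described as an early oestrogen-induced gene. In the mouse genome (build mm10, GENCODE annotation) they are protein-coding genes on several chromosomes. Bok is at chr1:93685660-93695764 (plus strand), Fam102a at chr2:32535332-32569756 (plus), Aqp1 at chr6:55336432-55348555 (plus) and Cmtm3 at chr8:104339410-104347672 (plus). Chromosome 10 carries Arhgap18 at chr10:26753421-26918648 (plus) and Tmcc3 at chr10:94311949-94590956 (plus), Entpd5 is at chr12:84373857-84409029 (minus) and F2r at chr13:95601803-95618487 (minus).

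Levels below are CPM scaled by TMM factors computed within each species. Differences are log2 fold changes of SIS ECM against cells alone, with the standard error. With SIS ECM, CMTM3, FAM102A, F2R, BOK and ARHGAP18 were higher in all 3 lines, and TMCC3, ENTPD5 and AQP1 were lower. Genes called higher made up 6.15% of those tested in CT26, 3.82% in MC38 and 7.75% in HT29, and genes called lower 3.1%, 5.36% and 5.79%. In CT26 a fit blocked on replicate number called 2281 genes against 1135 without it. With the block the count was 1188 against 1206 in MC38 and 1880 against 2058 in HT29. Since the 8 genes were chosen on these calls, nothing is read from their count. Over the 24 pairs of gene and line, the 2 cultures did not overlap in 16. That was so for 6 of 8 genes in CT26, 7 of 8 in MC38 and 3 of 8 in HT29, where 6.99%, 9.51% and 6.39% of all genes tested had cultures that did not overlap. The plot of every library shows these levels.

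**Figure D1:**
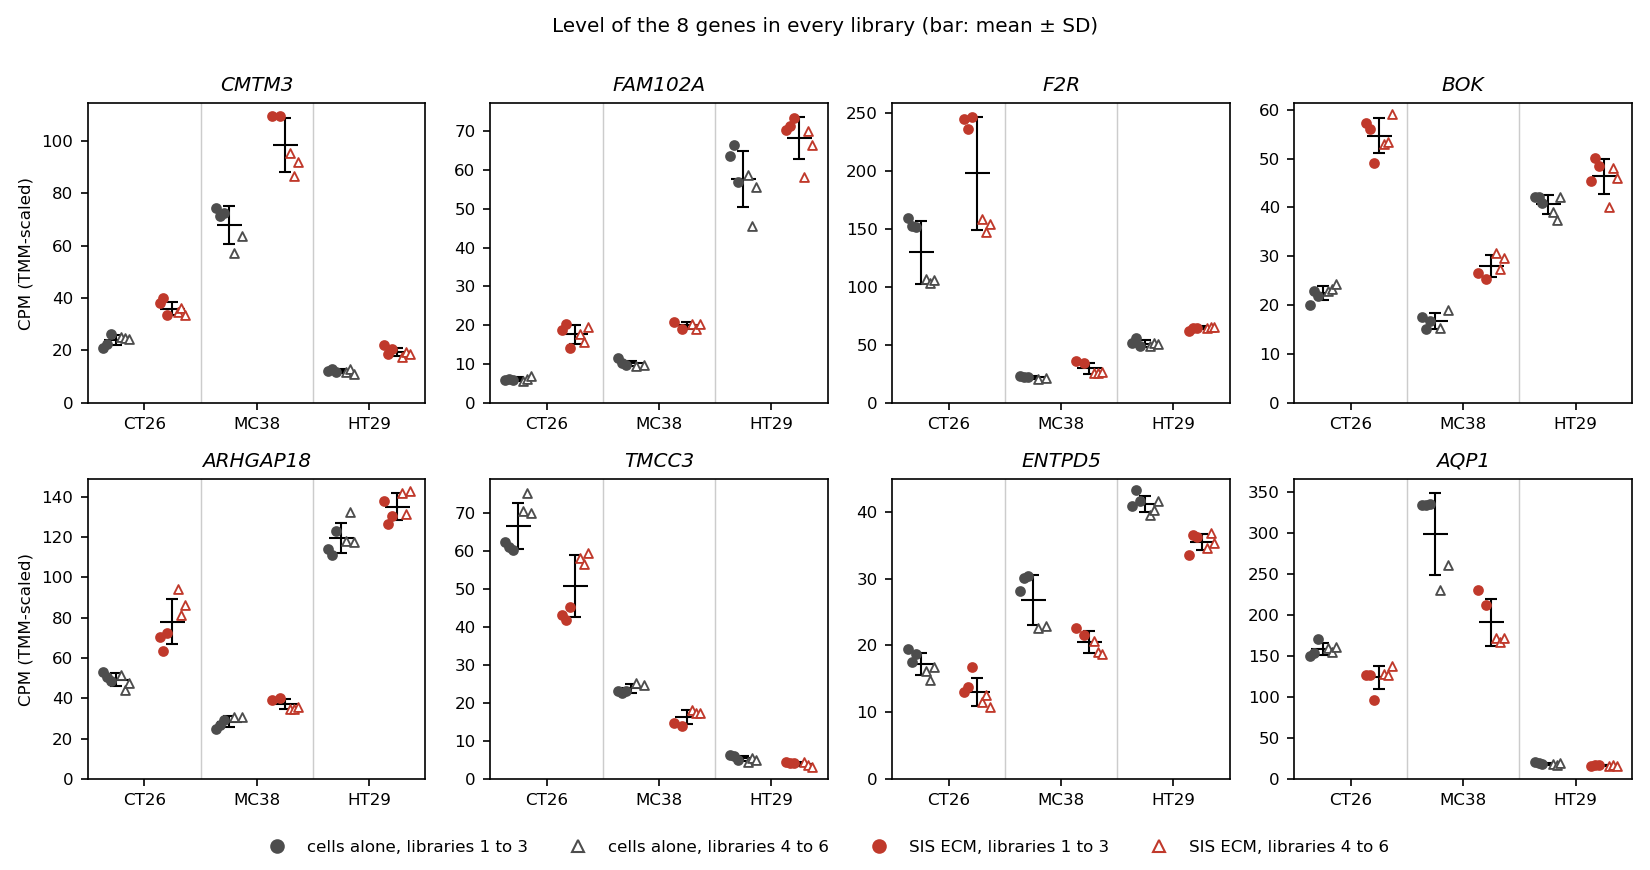
Level of each gene (CPM on a linear axis from 0) in each of 34 libraries, by line, with cells alone in grey and SIS ECM in red, filled circles for libraries 1 to 3, open triangles for libraries 4 to 6, and bars for the mean ± SD of a group. CMTM3 stands apart between cultures in every line, while F2R in CT26 overlaps over all libraries (103 to 159 CPM in cells alone, 147 to 246 CPM with SIS ECM) and separates within each number range.

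CMTM3 had the most even response. In CT26, CMTM3 ran from 21.0 to 26.4 CPM in cells alone (median 24.6) and from 33.4 to 39.97 CPM with SIS ECM (median 35.5), a log2 fold change of 0.59 ± 0.07. The MC38 libraries of cells alone numbered 1 to 5 held 74.3, 71.2, 72.6, 57.2 and 63.7 CPM and the SIS ECM libraries 1, 3, 4, 5 and 6 held 109, 109, 95.2, 86.5 and 91.8 CPM (0.56 ± 0.08). HT29 cells alone had 11.1 to 13.1 CPM (median 12.1) and HT29 with SIS ECM had 17.3 to 21.98 CPM (median 19.1), a difference of 0.68 ± 0.06. No SIS ECM library overlapped the cells-alone libraries of its line. With libraries 1 to 3 only the differences were 0.67, 0.59 and 0.74 in CT26, MC38 and HT29, and with libraries 4 to 6 only 0.51, 0.61 and 0.62. In MC38 the libraries numbered 4 to 6 were lower than those numbered 1 to 3 in both cultures.

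FAM102A had the largest difference of the 8 in both mouse lines and a smaller one in HT29. In CT26, FAM102A ran from 5.51 to 6.83 CPM in cells alone (median 6.08) and from 14.0 to 20.4 CPM with SIS ECM (median 18.2), a log2 fold change of 1.54 ± 0.10, or 2.91-fold. MC38 cells alone held 11.4, 10.2, 9.79, 9.59 and 9.77 CPM, and MC38 with SIS ECM held 20.9, 19.0, 20.4, 19.1 and 20.2 CPM (0.99 ± 0.07, 1.99-fold). In HT29 cells alone had 45.6 to 66.3 CPM (median 57.8) and SIS ECM had 58.1 to 73.2 CPM (median 70.2), a difference of 0.24 ± 0.07. The cultures did not overlap in either mouse line. In HT29 5 of 6 SIS ECM libraries exceeded every cells-alone library, and the difference ran from 0.18 to 0.28 when each library was left out in turn.

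BOK had the second largest difference of the 8 in both mouse lines. In CT26, BOK ran from 20.1 to 24.4 CPM in cells alone (median 22.8) and from 49.1 to 59.1 CPM with SIS ECM (median 54.8), a log2 fold change of 1.29 ± 0.07, or 2.44-fold. Cells alone of MC38 held 17.6, 15.1, 16.8, 15.3 and 19.1 CPM and MC38 with SIS ECM held 26.6, 25.4, 30.8, 27.3 and 29.7 CPM (0.75 ± 0.08). HT29 had 37.5 to 42.1 CPM in cells alone (median 41.5) and 40.03 to 50.1 CPM with SIS ECM (median 47.1), a difference of 0.19 ± 0.05. The mouse cultures did not overlap, and SIS ECM library 4 of HT29, at 40.03 CPM, fell among the cells-alone libraries. In CT26, 99.3% of the genes tested had a smaller absolute difference than FAM102A and 98.9% a smaller one than BOK, whereas in HT29 the shares were 83.6% and 76.6%.

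FAM102A and BOK had the highest correlation of any pair of the 8 over line-centred libraries, a value that contains the culture contrast that chose them, and the stretches before their mouse start sites are shown. All 8 mouse symbols matched the RefSeq promoter table (build GRCm38.p6). The 250 bases before the start of Fam102a are chr2:32535109-32535358 on the plus strand, and those before Bok are chr1:93685325-93685574 on the plus strand. Both are printed 5′ to 3′, with matches to the GC box (GGGCGG) and the CCAAT box (CCAAT) in capitals, on either strand.
Fam102a: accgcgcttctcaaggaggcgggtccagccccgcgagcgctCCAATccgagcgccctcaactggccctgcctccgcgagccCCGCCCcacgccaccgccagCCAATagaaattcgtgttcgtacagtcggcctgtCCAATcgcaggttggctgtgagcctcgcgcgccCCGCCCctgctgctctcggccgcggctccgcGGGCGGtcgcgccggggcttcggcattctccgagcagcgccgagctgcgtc
Bok: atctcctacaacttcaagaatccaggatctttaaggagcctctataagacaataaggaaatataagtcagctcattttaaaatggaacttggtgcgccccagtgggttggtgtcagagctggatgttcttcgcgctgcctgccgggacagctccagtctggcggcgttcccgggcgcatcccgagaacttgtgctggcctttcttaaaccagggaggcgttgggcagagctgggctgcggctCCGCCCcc
Fam102a has 3 GC boxes, 3 CCAAT boxes and a GC content of 72.0%, and Bok has 1 GC box, no CCAAT box and a GC content of 55.2%, against a median of 52.4% over all 32851 windows of this length. A GC box was found in 32.7% of these windows and a CCAAT box in 33.8%. The pair therefore shares the GC box and differs in the CCAAT box.

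F2R was higher with SIS ECM in each line, and in the mouse lines its level also followed the number range. In CT26, F2R ran from 103 to 159 CPM in cells alone (median 129) and from 147 to 246 CPM with SIS ECM (median 197), a log2 fold change of 0.61 ± 0.17. The 5 libraries of MC38 cells alone held 23.3, 22.3, 21.9, 20.8 and 21.1 CPM and MC38 with SIS ECM held 35.6, 34.1, 26.1, 26.1 and 26.9 CPM (0.46 ± 0.09). HT29 had 48.6 to 55.9 CPM in cells alone (median 51.0) and 62.0 to 65.7 CPM with SIS ECM (median 64.8), a difference of 0.34 ± 0.04. In CT26 only 3 of 6 SIS ECM libraries exceeded every cells-alone library, whereas in MC38 and HT29 all did. Within CT26 libraries 1 to 3 the cells-alone mean was 155 CPM and the SIS ECM mean 242 CPM, and within libraries 4 to 6 the means were 105 and 153 CPM. The difference was 0.64 ± 0.06 in the first range and 0.56 ± 0.04 in the second, so that within a range it was larger against its error than over all libraries. In MC38 it was 0.63 ± 0.07 in libraries 1 to 3 and 0.34 ± 0.08 in libraries 4 to 6.

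ARHGAP18 differed between the ranges in the size of its response. In CT26, ARHGAP18 ran from 44.3 to 53.2 CPM in cells alone (median 49.6) and from 63.4 to 94.0 CPM with SIS ECM (median 76.9), a log2 fold change of 0.67 ± 0.09. For MC38, cells alone held 24.5, 26.9, 29.0, 30.9 and 30.8 CPM and MC38 with SIS ECM held 39.3, 39.9, 34.8, 34.9 and 35.8 CPM (0.39 ± 0.08). HT29 had 111 to 132 CPM in cells alone (median 118) and 127 to 143 CPM with SIS ECM (median 135), a difference of 0.18 ± 0.05. The mouse cultures did not overlap, and in HT29 3 of 6 SIS ECM libraries exceeded every cells-alone library. In CT26 the difference was 0.43 ± 0.07 in libraries 1 to 3 and 0.89 ± 0.06 in libraries 4 to 6. In MC38 the order was the opposite, with 0.56 ± 0.07 in libraries 1 to 3 and 0.21 ± 0.07 in libraries 4 to 6. Whether the response differed between ranges was not tested.

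The windows before the mouse starts of F2r and Arhgap18 are shown because each holds the AP-1 motif TGANTCA, which no other of the 7 members with a single window in the RefSeq table holds. That of F2r is chr13:95618467-95618716 on the minus strand and that of Arhgap18 is chr10:26772262-26772511 on the plus strand, both on GRCm38.p6, printed 5′ to 3′ with the motif in capitals. The window of Arhgap18 lies inside the span of the gene in the GENCODE annotation, which begins further upstream.
F2r: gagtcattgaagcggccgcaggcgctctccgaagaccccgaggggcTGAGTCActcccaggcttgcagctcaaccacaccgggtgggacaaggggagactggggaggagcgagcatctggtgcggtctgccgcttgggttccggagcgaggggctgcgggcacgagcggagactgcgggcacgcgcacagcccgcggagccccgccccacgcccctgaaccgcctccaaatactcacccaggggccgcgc
Arhgap18: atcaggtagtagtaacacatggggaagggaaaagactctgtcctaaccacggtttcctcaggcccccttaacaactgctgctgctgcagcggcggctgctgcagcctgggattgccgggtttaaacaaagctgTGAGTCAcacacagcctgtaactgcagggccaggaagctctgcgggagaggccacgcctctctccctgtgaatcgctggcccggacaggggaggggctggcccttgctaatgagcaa
AP-1 is a family of dimers of FOS and JUN proteins. The motif was present in 6.75% of all 32851 windows. Among the 7 members, a GC box was found in 5 (Aqp1, Bok, Cmtm3, F2r and Fam102a) and a CCAAT box in 1. None held the TATA box TATAAA (12.4% of all windows), the TEAD motif GGAATG (12.6%), the E-box CACGTG (6.02%), the cAMP response element TGACGTCA (1.55%) or the interferon-stimulated response element core GAAANNGAAA (2.98%). All motifs were sought on both strands, and none of them contains another. Tmcc3 has 6 windows in the table and was left out of these counts. A match is a stretch of letters and not a measured binding site.

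TMCC3 was lower with SIS ECM by a similar amount in each line. In CT26, TMCC3 ran from 60.2 to 75.2 CPM in cells alone (median 66.1) and from 41.8 to 59.5 CPM with SIS ECM (median 50.8), a log2 fold change of -0.38 ± 0.10. In MC38, cells alone held 23.2, 22.7, 23.0, 25.3 and 24.8 CPM and MC38 with SIS ECM held 14.8, 13.8, 18.2, 17.3 and 17.4 CPM (-0.53 ± 0.09). HT29 had 4.501 to 6.21 CPM in cells alone (median 5.25) and 3.08 to 4.58 CPM with SIS ECM (median 4.17), a difference of -0.42 ± 0.10. The mouse cultures did not overlap, and in HT29 5 of 6 SIS ECM libraries lay below all cells-alone libraries. The HT29 level rested on 94 to 215 counts per library, the fewest of any member in that line. In both mouse lines libraries 4 to 6 were higher than libraries 1 to 3 in each culture, the reverse of F2R. The mouse gene overlaps the antisense gene Tmcc3os, and whether reads were counted by strand is not stated in the labels or headers.

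ENTPD5 was lower with SIS ECM in each line, with cultures that lay close together in the mouse lines. In CT26, ENTPD5 ran from 14.8 to 19.4 CPM in cells alone (median 17.1) and from 10.8 to 16.7 CPM with SIS ECM (median 12.7), a log2 fold change of -0.39 ± 0.11. MC38 without matrix held 28.1, 30.0, 30.3, 22.6 and 22.8 CPM and MC38 with SIS ECM held 22.6, 21.5, 20.6, 19.0 and 18.7 CPM (-0.37 ± 0.09). HT29 had 39.6 to 43.2 CPM in cells alone (median 41.2) and 33.6 to 36.8 CPM with SIS ECM (median 35.7), a difference of -0.21 ± 0.04. In CT26 SIS ECM library 3, at 16.7 CPM, fell among the cells-alone libraries. In MC38 the highest SIS ECM library and the lowest cells-alone library both round to 22.6 CPM. Within number ranges the difference was -0.37 and -0.44 in CT26 and -0.42 and -0.21 in MC38, for libraries 1 to 3 and 4 to 6 in turn.

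AQP1 had its largest difference in MC38. In CT26, AQP1 ran from 150.1 to 170.5 CPM in cells alone (median 157) and from 96.2 to 138 CPM with SIS ECM (median 127), a log2 fold change of -0.34 ± 0.08. Among MC38 libraries, cells alone held 333, 334, 335, 230.0 and 261 CPM and MC38 with SIS ECM held 231, 212, 172, 167 and 172 CPM (-0.63 ± 0.12). HT29 had 17.0 to 20.05 CPM in cells alone (median 18.6) and 15.2 to 17.2 CPM with SIS ECM (median 16.3), a difference of -0.19 ± 0.05. The CT26 cultures did not overlap. In MC38 SIS ECM library 1 (231 CPM) lay above cells-alone library 4 (230.0 CPM), and in HT29 1 SIS ECM library lay among the cells-alone libraries. Within ranges the MC38 difference was -0.60 ± 0.05 and -0.51 ± 0.06. With a number range term it was -0.55, since the ranges were not balanced between the MC38 cultures. AQP1 and F2R are also expressed by endothelium. Of 10 endothelial markers, Cdh5, Erg, Cldn5 and Emcn were at 0 in every CT26 library, and the list summed to 0.151 to 1.16 CPM there. In MC38 the list summed to 3.57 to 5.37 CPM in cells alone and 2.08 to 4.20 CPM with SIS ECM, nearly all of it Pecam1, with Tie1, Erg, Cldn5 and Kdr at 0. In HT29 it summed to 34.6 to 42.4 CPM, nearly all of it ESAM, with KDR, EMCN and CLDN5 at 0. The endothelial genes tested, 1 in MC38 and 1 in HT29, did not pass in either direction. Pecam1 had a mean of 3.96 CPM in MC38 cells alone and 2.46 CPM with SIS ECM. The 8 leukocyte markers summed to 1.31 to 3.05 CPM in CT26 cells alone and 1.64 to 10.8 CPM with SIS ECM, nearly all of it Cd68, which did not pass the test, with Tyrobp and Cd3e at 0. In HT29 the leukocyte list summed to 22.7 to 28.3 CPM in cells alone and 22.9 to 26.9 CPM with SIS ECM, with TYROBP at 0. Most of it was CD68, at a mean of 22.5 and 19.9 CPM, and CD74 also had a mean of 1 CPM or more. Of the 2 genes tested CD74 rose and CD68 fell. The 5 smooth muscle markers summed to 13.2 to 15.3 CPM in HT29 cells alone and 9.77 to 12.9 CPM with SIS ECM, and of the 2 tested ACTA2 rose and TAGLN fell. The part of these cell types in the differences was not tested.

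Across lines the absolute difference was smallest in HT29 for 6 of the 8 genes. It was largest in CT26 for 5 (FAM102A, BOK, ARHGAP18, F2R and ENTPD5), in MC38 for TMCC3 and AQP1, and in HT29 for CMTM3. The median absolute difference over the 8 was 0.60 in CT26, 0.54 in MC38 and 0.23 in HT29. Differences between HT29 and the mouse lines were not tested, since the species stand in separate tables. Between the mouse lines, the response in MC38 minus that in CT26 was -0.56 ± 0.13 for FAM102A, -0.54 ± 0.10 for BOK, -0.28 ± 0.12 for ARHGAP18 and -0.29 ± 0.15 for AQP1. It was -0.16 ± 0.22 for F2R, -0.15 ± 0.14 for TMCC3, -0.05 ± 0.12 for CMTM3 and 0.02 ± 0.15 for ENTPD5. The number ranges were not balanced between the MC38 cultures, so a shift between ranges can enter these values. With a number range term the difference was -0.55 ± 0.12 for FAM102A, -0.57 ± 0.09 for BOK, -0.28 ± 0.11 for ARHGAP18 and -0.21 ± 0.09 for AQP1. For F2R it was then -0.11 ± 0.07, for TMCC3 -0.19 ± 0.07, for CMTM3 0.005 ± 0.08 and for ENTPD5 0.09 ± 0.10. No p is given for these, because both responses chose the genes. FAM102A and BOK are the members whose responses lay farthest apart between the mouse lines. The authors' deposited table gave the same direction in all 24 pairs of gene and line, with values within 0.157 of those here on the log2 scale. It covers the same libraries and the contrast that chose the genes, so this is no independent test.

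**Figure D2:**
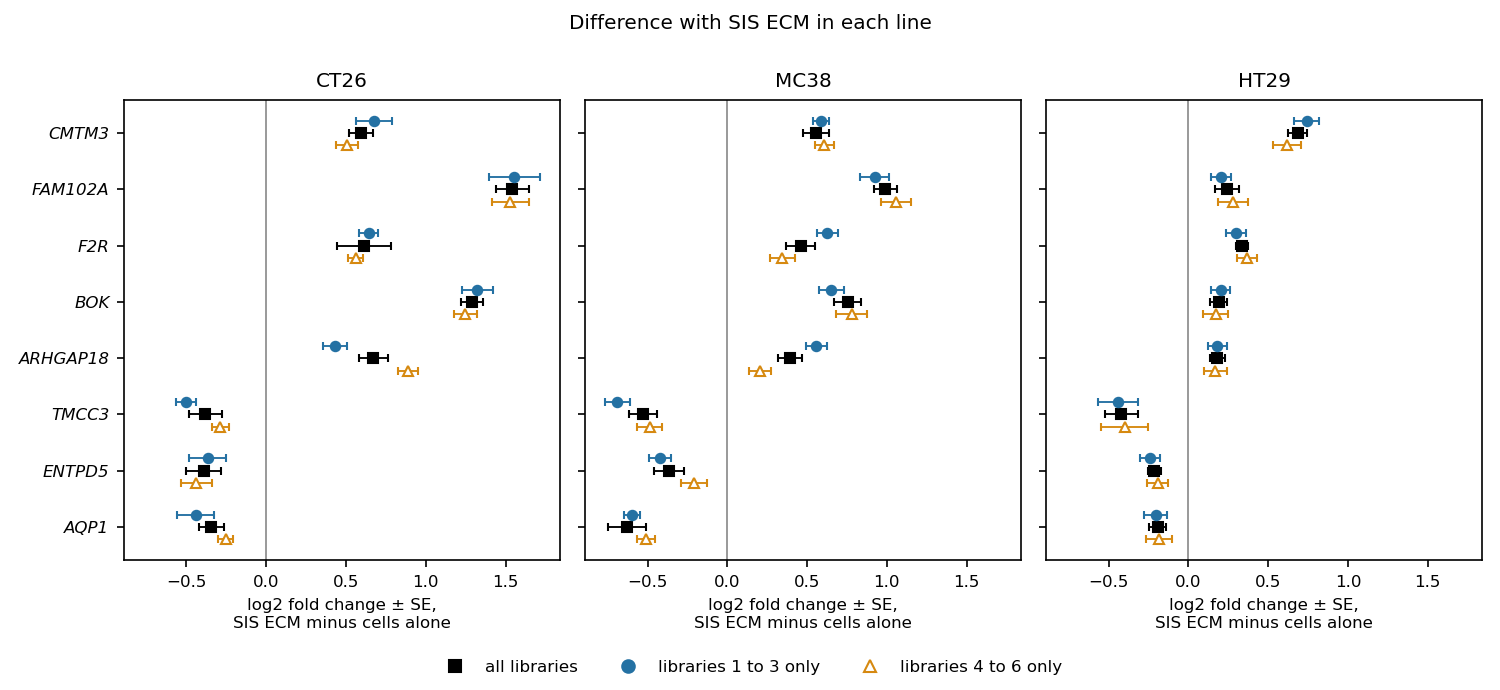
Log2 fold change ± SE of SIS ECM against cells alone for each gene (rows) in CT26, MC38 and HT29, from all libraries (black squares), libraries 1 to 3 only (blue circles) and libraries 4 to 6 only (open orange triangles). All 5 genes that were higher and all 3 that were lower keep their side of 0 within each range, ARHGAP18 differs most between ranges (0.43 and 0.89 in CT26), and the HT29 values lie nearest to 0 for 6 of 8 genes.

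The level of each gene without matrix was not used to choose the genes, and was compared between the mouse lines. All 8 differed between MC38 and CT26 cells alone (edgeR's quasi-likelihood test, n = 5 and 6), as did 80.2% of all genes tested, so the count is not particular to these genes. F2R was the farthest apart, at 129.9 ± 27.2 CPM in CT26 and 21.9 ± 0.98 CPM in MC38 (log2 difference -2.58 ± 0.14, adjusted p = 3.7e-10). TMCC3 was 66.5 ± 6.12 CPM in CT26 and 23.8 ± 1.15 CPM in MC38 (-1.48 ± 0.07, adjusted p = 7.4e-11), and ARHGAP18 was 49.3 ± 3.11 and 28.4 ± 2.704 CPM (-0.80 ± 0.08, adjusted p = 3.4e-07). BOK was 22.6 ± 1.44 CPM in CT26 and 16.8 ± 1.65 CPM in MC38 (-0.43 ± 0.08, adjusted p = 0.00012). These 4 were lower in MC38. The other 4 were higher there, with CMTM3 at 67.8 ± 7.17 CPM against 24.0003 ± 1.97 CPM (1.49 ± 0.08, adjusted p = 1.7e-10). AQP1 was 299 ± 49.7 CPM in MC38 and 158 ± 7.16 CPM in CT26 (0.91 ± 0.09, adjusted p = 2.9e-07). FAM102A was 10.2 ± 0.75 and 6.10 ± 0.44 CPM (0.73 ± 0.08, adjusted p = 1.2e-06), and ENTPD5 was 26.8 ± 3.80 and 17.2 ± 1.68 CPM (0.62 ± 0.10, adjusted p = 4.1e-05). For each of the 8 the libraries of the lines did not overlap. The share of all genes for which this held was not counted, so it is not read as particular to the 8. Among the SIS ECM libraries the difference of FAM102A between MC38 and CT26 was 0.16 ± 0.10, at 17.7 ± 2.40 CPM in CT26 and 19.9 ± 0.85 CPM in MC38. That of BOK was -0.98 ± 0.08. No p is given for these values, because set beside the cells-alone values they restate the responses that chose the genes.

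Ordered by mean CPM over the 4 mouse groups, CMTM3, BOK, ARHGAP18 and TMCC3 had no neighbouring groups whose libraries overlapped. The share of all genes with such an order was not counted. The order of the cultures within a line restates the contrast that chose the genes, so these orders are descriptions. BOK ran from MC38 cells alone through CT26 cells alone and MC38 with SIS ECM up to CT26 with SIS ECM, so both SIS ECM groups stood above both cells-alone groups. FAM102A had the same split, with its SIS ECM groups overlapping each other. For CMTM3, ARHGAP18 and TMCC3 both groups of 1 line stood above both groups of the other. The line on top was MC38 for CMTM3 and CT26 for ARHGAP18 and TMCC3. F2R also had both CT26 groups above both MC38 groups, but its CT26 cultures overlapped. For ENTPD5 and AQP1 the MC38 SIS ECM libraries overlapped the CT26 cells-alone libraries, and in addition the CT26 cultures of ENTPD5 and the MC38 cultures of AQP1 overlapped.

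Per kilobase of merged exons in the mouse annotation, AQP1 was the most abundant of the 8 in cells alone, at 60.2 ± 2.73 CPM per kb in CT26 and 114 ± 18.9 CPM per kb in MC38. F2R came next in CT26 (38.9 ± 8.15 CPM per kb), and CMTM3 next in MC38 (22.7 ± 2.40 CPM per kb). BOK was at 12.3 ± 0.78 and 9.14 ± 0.90 CPM per kb in CT26 and MC38. The lowest was FAM102A, at 1.01 ± 0.07 and 1.67 ± 0.12 CPM per kb, so the gene with the largest fold change started from the lowest level. With SIS ECM the order at the top was reversed in CT26, with F2R at 59.3 ± 14.7 and AQP1 at 47.1 ± 5.39 CPM per kb, a gap within the SD of F2R. Human lengths were not used here.

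**Figure D3:**
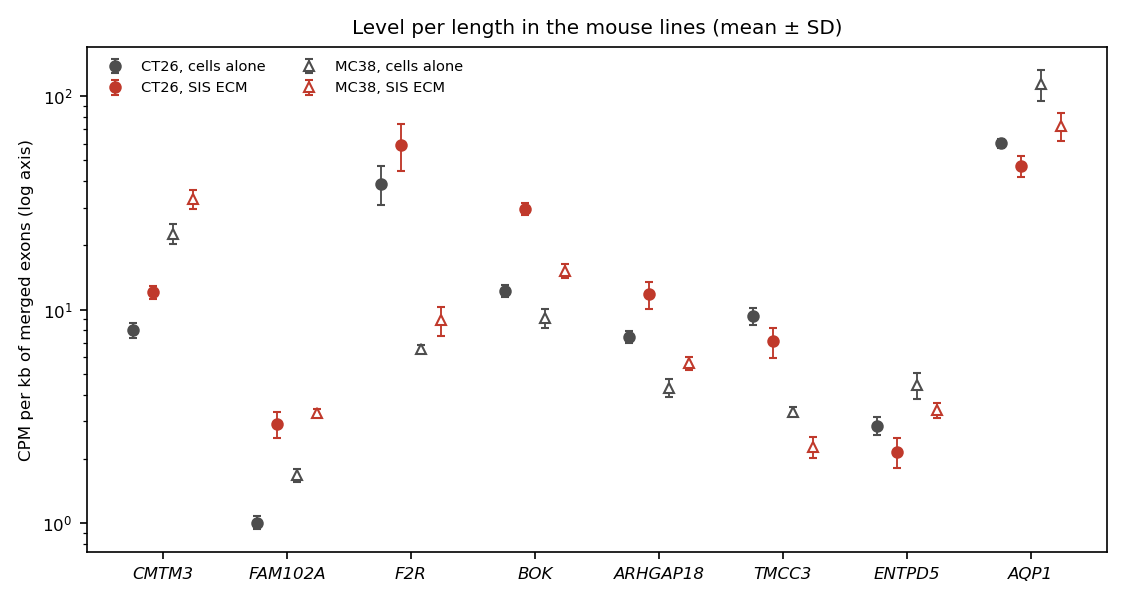
Mean ± SD level per kilobase of merged exons (log axis) of each gene in the 4 mouse groups, with CT26 as filled circles, MC38 as open triangles, cells alone in grey and SIS ECM in red. AQP1 is highest and FAM102A lowest in cells alone, and F2R is the gene with the widest gap between the lines.

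The number range of the library was the other contrast that did not choose the genes. The SIS ECM calls held no range term, however, so a shift between ranges widened the spread they were set against. The counts of the 8 below are therefore not independent of the choice. With culture as a term in the fit, F2R was lower in CT26 libraries 4 to 6 than in libraries 1 to 3 by 0.61 on the log2 scale, a value of -0.61 ± 0.04 (adjusted p = 2.8e-08, n = 6 and 6, edgeR's quasi-likelihood test). ENTPD5 was lower too (-0.26 ± 0.08, adjusted p = 0.0086) and TMCC3 was higher (0.33 ± 0.05, adjusted p = 5.0e-05). These 3 of 8 compare with 51.5% of all genes in CT26. In MC38, AQP1 (-0.38 ± 0.05, adjusted p = 1.5e-05), ENTPD5 (-0.25 ± 0.06, adjusted p = 0.0037), CMTM3 (-0.24 ± 0.04, adjusted p = 0.00065) and F2R (-0.23 ± 0.06, adjusted p = 0.0078) were lower in libraries 4 to 6. TMCC3 was higher (0.24 ± 0.06, adjusted p = 0.0049), so 5 of 8 passed, against 39.1% of all genes (n = 5 and 5). In each of these 8 cases all libraries of 1 range lay on 1 side of the other range within both cultures. These cases had already passed the test on the same libraries, and the share over all genes was not counted, so nothing is read from this. F2R, ENTPD5 and TMCC3 thus moved the same way with number in both mouse lines. FAM102A, BOK and ARHGAP18 passed in neither. In HT29 none of the 8 passed, and 0% of all genes did (0 of 15766 by edgeR, 2517 at an unadjusted p under 0.05, 92 by DESeq2). For F2R in CT26 the number range gave a difference as large as the matrix did. Its pooled SD of log2 CPM within a culture fell from 0.34 over all CT26 libraries to 0.04 within ranges.

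The 8 genes were also compared library by library. After the mean of each line was subtracted, log2 CPM of FAM102A and BOK had a Pearson r of 0.98 over 34 libraries, the highest of the 28 pairs among the 8. These points share the contrast of cultures that chose the genes, and the number ranges. After the mean of each line and culture was subtracted instead, r between FAM102A and BOK was 0.60, and with the number range also removed 0.65. In the step to line and culture FAM102A with F2R went from 0.71 to 0.02 and CMTM3 with BOK from 0.75 to 0.10. Other pairs changed sign in that step, such as CMTM3 with AQP1 (-0.55 to 0.63), TMCC3 with ENTPD5 (0.44 to -0.53) and F2R with ENTPD5 (-0.31 to 0.71). F2R and ENTPD5, which the matrix moved in opposite directions, had the highest r named here within cultures, and 0.17 once number range was removed. F2R and TMCC3 went from -0.66 to 0.35. AQP1 with FAM102A was at 0.69 and AQP1 with BOK at 0.62 after all 3 means were removed, although the matrix moved AQP1 the other way.

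**Figure D4:**
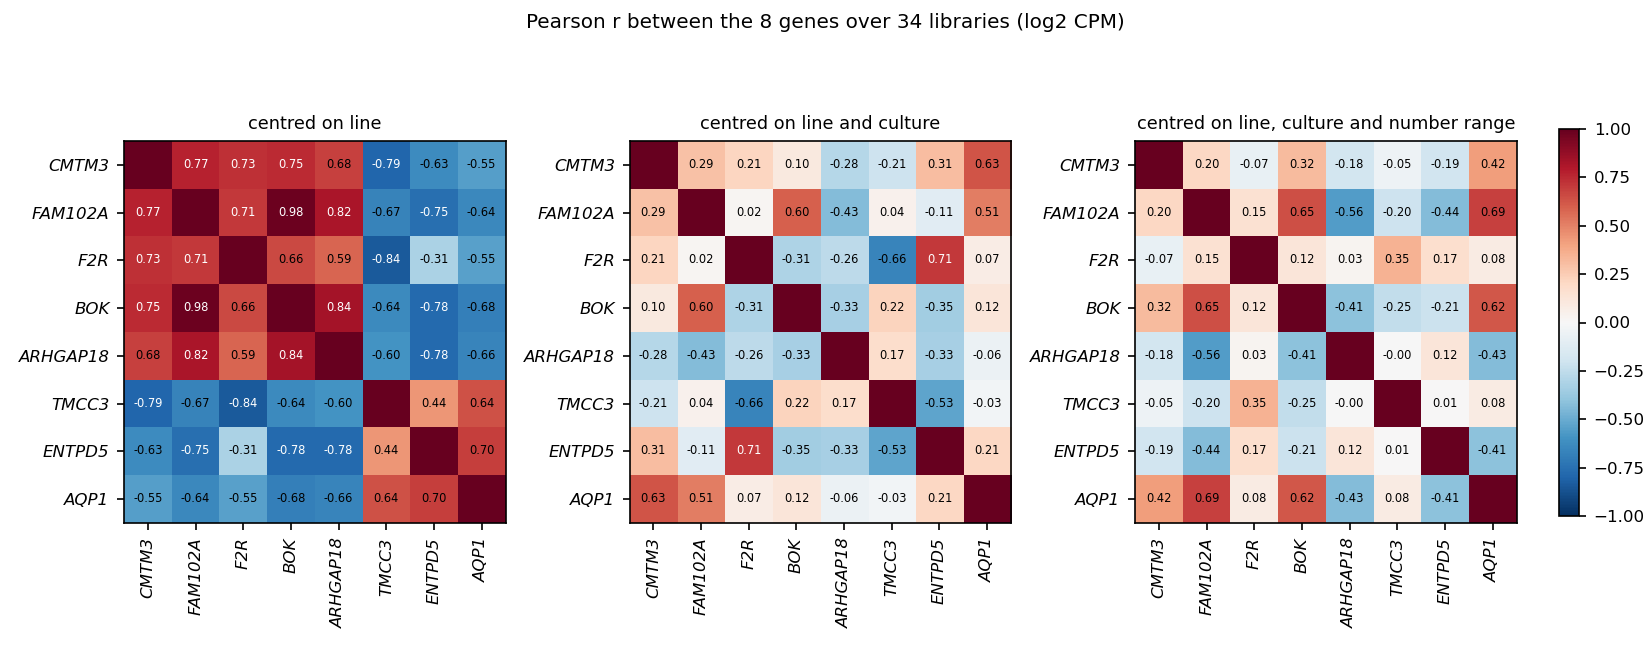
Pearson r of log2 CPM between each pair of the 8 genes over 34 libraries, after subtracting the mean of the line (left), of line and culture (middle) and of line, culture and number range (right), on a colour scale from -1 to 1. The block of positive and negative values at the left, set by the culture contrast that chose the genes, is changed in the middle and right panels, where FAM102A with BOK is at 0.60 and 0.65 and other pairs, such as F2R with ENTPD5 (0.71) and FAM102A with AQP1 (0.69), are higher.

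Over the same line-centred libraries, the 3 genes most like each member were taken from 8836 genes tested in all lines, by Pearson r over 34 libraries. These r values share the culture contrast and the number ranges, and are descriptions. For FAM102A they were BOK (0.98), DDX41 (0.96) and ST3GAL4 (0.93), and for BOK they were FAM102A (0.98), DDX41 (0.95) and ST3GAL4 (0.92). DDX41 differed with SIS ECM by 1.07 in CT26 and 0.96 in MC38 but by 0.09 in HT29, and ST3GAL4 by 1.14, 0.99 and -0.03. Within HT29 alone r with FAM102A was 0.88 for BOK, 0.78 for DDX41 and 0.18 for ST3GAL4. There r with BOK was 0.56 for DDX41 and -0.15 for ST3GAL4. For F2R they included ABCA1 (0.95) and AHR (0.93). ARHGAP18 was most like LAMP2 (0.93), B2M (0.89) and CP (0.87), and the genes most like CMTM3 included IFI27 (0.87) and MMP14 (0.84). Of these, B2M and IFI27 are on the interferon list. Within HT29 alone r with ARHGAP18 was 0.71 for LAMP2, 0.94 for B2M and 0.38 for CP. Among the genes that were lower, ENTPD5 was most like STIM2 (0.90), PDP2 (0.85) and CTNND1 (0.85), AQP1 most like MARS (0.86), DDAH1 (0.84) and PREP (0.83), and TMCC3 most like TMEM97 (0.79), NSDHL (0.73) and IDI1 (0.73). ABCA1, MMP14 and NSDHL are among the 6 other genes outside the interferon list that were called in 1 direction in all lines.

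The relatives of each gene were then read from lists that leave the gene itself out. Of all genes tested, 6.15% rose and 3.1% fell in CT26, 3.82% and 5.36% in MC38, and 7.75% and 5.79% in HT29. These fits held no term for the number range. With that term, 3545 genes were called in CT26 against 1135 without it, and 3246 in MC38 against 1206. A relative that did not pass in a mouse line is therefore not shown to be unchanged. Among genes of thrombin receptor signalling, 3 of 16 tested rose in CT26 and none fell. The arrestin gene Arrb1, which uncouples receptors from G proteins, rose from 65.8 ± 10.8 to 101 ± 15.6 CPM (0.63 ± 0.12, adjusted p = 0.0044), with 1.00 in libraries 1 to 3 and 0.25 in libraries 4 to 6, and the phospholipase gene Plcb1 rose by 0.51 ± 0.12 (adjusted p = 0.015). In MC38 1 of 17 rose and 2 fell. Plcb1 rose by 0.43 ± 0.07 (adjusted p = 0.0022), and F3, which encodes tissue factor, the starter of thrombin formation, fell from 116 ± 27.3 to 76.1 ± 4.89 CPM (-0.59 ± 0.13, adjusted p = 0.016), with -0.75 in libraries 1 to 3 and -0.22 in libraries 4 to 6. The G protein gene Gnai2 was the other that fell (-0.25 ± 0.07, adjusted p = 0.034). In HT29 1 of 19 rose and 1 fell: SERPINE2, an inhibitor of thrombin, fell from 52.0 ± 0.74 to 40.1 ± 1.74 CPM (-0.37 ± 0.04, adjusted p = 4.4e-06), and GNAI2 rose by 0.13 ± 0.04 (adjusted p = 0.042, lost in 10 of 12 omissions of 1 library). The median of the list was 0.00, -0.16 and 0.03 in CT26, MC38 and HT29, against 0.01, 0.01 and 0.00 over all genes tested.

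Other BCL2 family genes mostly did not pass. In CT26 none of 14 passed. In MC38 the anti-apoptotic Bcl2 rose from 4.51 ± 0.79 to 7.501 ± 0.97 CPM (0.75 ± 0.14, adjusted p = 0.0071) and the pore-forming Bak1 fell by 0.39, a value of -0.39 ± 0.07 (adjusted p = 0.0076), as the only 2 of 14. In HT29 BCL2L14 fell (-0.46 ± 0.08, adjusted p = 0.00053) and the BH3-only gene PMAIP1 rose (0.23 ± 0.07, adjusted p = 0.024, lost in 3 of 12 omissions), of 18 tested. FAM102B, a relative of FAM102A, fell in CT26 (-0.36 ± 0.07, adjusted p = 0.0039), where FAM102A was higher, and did not pass in MC38 (0.04 ± 0.06) or HT29 (0.00 ± 0.06). The other TMCC genes, 2 tested in each mouse line and 1 in HT29, did not pass, with TMCC1 at -0.18 ± 0.11, -0.06 ± 0.10 and -0.07 ± 0.05 in CT26, MC38 and HT29, and whether they differed from TMCC3 was not tested. Of the other CMTM genes none of 4 passed in CT26 or MC38, and in HT29 1 of 6 did, CMTM1 at 1.78 ± 0.26 and 2.33 ± 0.25 CPM (0.38 ± 0.12, adjusted p = 0.047), which was lost in 10 of 12 omissions of 1 library.

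Of the other RhoGAP genes of the ARHGAP family, 4 of 22 rose and 2 fell in CT26, 2 of 22 rose and 1 fell in MC38, and 4 of 21 rose in HT29. Arhgap28 rose from 1.15 ± 0.36 to 2.68 ± 0.28 CPM in CT26 (1.21 ± 0.19, adjusted p = 0.0013) and Arhgap6 from 4.93 ± 1.45 to 10.4 ± 3.00 CPM (1.08 ± 0.21, adjusted p = 0.0049). In MC38 Arhgap42 rose by 0.42 ± 0.06 (adjusted p = 0.0013) and Arhgap26 by 0.51 ± 0.09 (adjusted p = 0.0055), with 0.31 and 0.68 in libraries 1 to 3 and 4 to 6, and in HT29 ARHGAP45 rose by 0.19 ± 0.04 (adjusted p = 0.0084) and ARHGAP23 by 0.24 ± 0.07 (adjusted p = 0.034, lost in 7 of 12 omissions). The medians of the list were 0.00, -0.06 and 0.04.

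None of the other genes of the N-glycoprotein folding cycle, in which ENTPD5 acts, passed in CT26 (16 tested). In MC38 3 of 17 fell, among them the adenylate kinase gene Ak1 (-0.45 ± 0.09, adjusted p = 0.012) and Os9 (-0.42 ± 0.10, adjusted p = 0.024, lost in 6 of 10 omissions). In HT29 4 of 17 fell and 1 rose, with SEL1L (-0.22 ± 0.05, adjusted p = 0.0037) and OS9 (-0.21 ± 0.05, adjusted p = 0.0047) the smallest in adjusted p. OS9 and SEL1L act in the disposal of misfolded glycoproteins. The other ENTPD genes did not pass in the mouse lines (3 tested in each), and in HT29 2 of 5 fell, ENTPD6 by 0.13 (-0.13 ± 0.04, adjusted p = 0.022, lost in 2 of 12 omissions) and ENTPD7 (-0.16 ± 0.05, adjusted p = 0.036, lost in 9 of 12 omissions, with -0.09 and -0.24 in the number ranges). Of the other aquaporins only Aqp11 was tested in the mouse lines. It rose in CT26 from 0.43 ± 0.17 to 1.19 ± 0.11 CPM (1.46 ± 0.25, adjusted p = 0.0018), opposite to Aqp1, and did not pass in MC38 (-0.28 ± 0.16). In HT29 AQP5 rose from 18.6 ± 1.21 to 25.7 ± 1.181 CPM (0.46 ± 0.05, adjusted p = 9.7e-06) and AQP11 fell (-0.45 ± 0.12, adjusted p = 0.018), of 4 tested. AQP3 and AQP7 did not pass.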

How the data were processed

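PolyA RNA was measured in 34 libraries. For mouse and for human the authors deposited a table of expected counts, not normalised, with library totals of 15.8 to 24.2 megacounts in mouse and 25.5 to 37.0 in human. The submitters' processing notes name cutadapt 1.18, STAR 2.7.0f, RSEM 1.3.1, limma and the builds mm10 and hg38, without roles. Per the file headers, the authors also deposited a log2 fold change per gene and line, and 34 per-sample columns in those tables were not used.

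Expected counts were rounded and tested with edgeR 4.0.16 (R 4.3.3; quasi-likelihood F test, two-sided, TMM factors, filterByExpr with a minimum count of 10, Benjamini-Hochberg adjustment over all genes tested), per line for SIS ECM against cells alone. Other fits compared MC38 with CT26 cells alone, libraries 4 to 6 with 1 to 3 (culture as a term), and the responses of the mouse lines (an interaction). The fits were tested on simulated counts. DESeq2 1.42.0 was an alternative, besides other size factors, no filter, a replicate block, a number range term, each range alone and each library left out. Correlations used log2 of CPM plus 1 for the genes most alike.

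Same-numbered libraries deviated together in CT26 (r = 0.27 to 0.61 over 6 pairs) and MC38 (0.21 to 0.42 over 4), over the limit of 0.1 used to treat numbers as pairs. This comes from the data and not the labels, the best match of a library was its own number in only 1 of 6 and 2 of 4, and same-numbered libraries also share a number range, so pairing and range cannot be told apart. No 2 libraries of a group agreed within sampling noise (chi-square per degree of freedom 1.92 or more over 80 pairs).

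The 8 genes and all lists were chosen with earlier results of these data known, and the promoter motifs after the windows had been read. Named genes were the 8, up to 2 called relatives per list and line with the smallest adjusted p, the 3 genes most like each of the 8, and the gene on either side of the threshold. Some genes that this rule names are not reported here. The other shared genes and genes in marker lists were named after their values were seen.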

Additional observations from a re-analysis of the deposited data

Results flagged for a closer look

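Of 48 sets of libraries (each gene in each group), 2 held a library far from the rest of its group, where chance gives about 1 in 20. F2R in HT29 with SIS ECM was lowest in replicate 1, at 62.0 CPM, and AQP1 in CT26 with SIS ECM was lowest in replicate 3, at 96.2 CPM.

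Among the relatives named in the report, 8 differed between the mouse lines in their response to SIS ECM (edgeR's interaction term over 22 libraries, as log2 fold change in MC38 minus that in CT26), as did 1165 of all 14080 genes tested. These relatives were named for passing in at least 1 line, so their differences between lines are not independent of that choice. The difference was -1.75 for Aqp11 (adjusted p = 0.00039), -1.05 for F3 (adjusted p = 0.0011), which rose in CT26 and fell in MC38, -1.04 for Arhgap6 (adjusted p = 0.0098), -0.98 for Arhgap28 (adjusted p = 0.021), -0.82 for Arrb1 (adjusted p = 0.0023) and -0.77 for Ak1 (adjusted p = 0.0017). It was 0.60 for Bcl2 (adjusted p = 0.0065) and 0.38 for Fam102b (adjusted p = 0.013).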

How the results depend on the processing

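None of 440 alternative values of the 8 genes in the SIS ECM contrast changed direction, and 434 moved by less than the SD between libraries. The 6 that moved were those of ARHGAP18 in CT26 (0.43 in libraries 1 to 3 and 0.89 in 4 to 6) and MC38 (0.56 and 0.21), and of F2R (0.63) and TMCC3 (-0.69) in MC38 libraries 1 to 3. All 8 were called in 1 direction in all lines with other size factors, no filter, DESeq2, the replicate block and the number range term. Within libraries 1 to 3 only, and again within 4 to 6 only, 2 were (CMTM3 and F2R), with fewer libraries. In the order given, these settings called 19, 16, 33, 26, 65, 36 and 12 of all genes in 1 direction in all lines. They refit the libraries that chose the 8 genes, so the counts of the 8 are a description and not a test. With 1 library left out, the adjusted p reached 0.05 in 9 of 12 omissions for FAM102A in HT29 and ENTPD5 in CT26, 7 for TMCC3 and 6 for F2R in CT26, 6 of 10 for ENTPD5 in MC38, and 4 for BOK and 2 for AQP1 in HT29.

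Counts of called genes moved more. In CT26, 1135 became 2281 with the replicate block, 3545 with the number range term, 2484 in libraries 1 to 3 and 2333 in 4 to 6. In MC38, 1206 became 3246, 5287 and 2318 with the last 3 of these settings, 1188 with the block, and 626 to 1948 with 1 library left out (626 to 663 without cells-alone library 1, 2 or 3, 1948 without cells-alone library 4, 724 and 742 without SIS ECM library 4 or 6). In HT29, 2058 became 719 and 417 in the ranges alone and 1880 with the block, where the numbers did not pair libraries (r = -0.14 to 0.07) and the block moved the adjusted p of CMTM1 to 0.068, ENTPD7 to 0.063 and AQP11 to 0.053. The block changed no other call of a named gene. The count for the number range in HT29 was 431 with no filter and 92 with DESeq2, against 0. The count of genes whose response differed between mouse lines was 1165, and 3740 with the range term. Genes called in 1 direction in all lines, counted across settings after seeing the data, were 33 with DESeq2, 65 with the range term, 36 in libraries 1 to 3 and 12 in 4 to 6, against 19. The cause of these changes was not tested. TMCC3 in HT29, at 94 to 215 counts per library, had the widest error of the 8 there.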
